A study of Mus musculus with 6 samples.

Results

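The insulin-like growth factor (IGF) system was followed in 6 mouse gliomas through its 2 ligands, 2 receptors and 6 of its binding proteins. The genes were Igf1, Igf2, Igf1r, Igf2r, Igfbp2, Igfbp3, Igfbp4, Igfbp5, Igfbp6 and Igfbp7, chosen by symbol. They had 24 probes among the 45281 of an Illumina mouse bead array, and all 10 genes were among the 12242 tested. RNA was taken from 2 HoxA5 tumours and 4 mCherry tumours, the control group, with 1 array for each. Both groups were made by injecting chicken DF1 fibroblasts into the right frontal cortex of adult mice that carried the Ntva transgene, in which nestin-expressing cells bear the receptor for the virus. In both groups some of these fibroblasts produced RCAS virus for PDGFB, and the rest produced RCAS virus for HoxA5 (HoxA5 tumours) or for the fluorescent protein mCherry (mCherry tumours). The mice were Ntva-Ink4a/Arf+/- or Ntva-Ink4a/Arf-/- on FVB/N, C57BL6, BALB/C and 129 backgrounds and were watched until they fell ill. Neither the genotype of each mouse nor whether the tumours of a group came from separate mice is given in the sources used here. P-values therefore measure only the spread between these samples, which may be technical in part. The study asked whether raised HOXA5 makes such gliomas more aggressive.

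IGF1 and IGF2 are secreted peptides that activate the receptor tyrosine kinase IGF1R, which drives growth and survival through PI3K, AKT and MAP kinases. IGF2R takes up IGF2 and delivers it to lysosomes. The binding proteins hold IGFs in tissue fluid and on the matrix and can block or prolong their action. In the adult brain Igf2 is known to be made mainly by the choroid plexus and the meninges, Igf1 by microglia and some neurons, and Igfbp7 by blood vessels.

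The delivered factor is a homeodomain protein, so the sequence before each start site was read for letters that such proteins recognise. RefSeq's GRCm38.p6 promoter table held all 10 genes with 14 start sites, of which the 250 bases upstream were used. The core letters TAAT, on either strand, were present before 2 of the 14 start sites, both of them Igf2, and in 54.9% of all promoters of that length. Igf2 has the most start sites of the 10 genes, 4, and its starts 3 and 4 lack TAAT. Neither TAATTA, which contains TAAT on both strands and which 4.84% of all promoters hold, nor the Hox-Pbx letters TGATNNAT (7.68%) stood before any of the 14. The GC box GGGCGG stood before 6 start sites of 5 members, against 32.7% of all promoters. The TATA box letters TATAAA stood before 1 start site each of Igfbp4 and Igfbp6, against 12.4% of all promoters. A match describes letters and is not a binding site, and the array does not tell which start site was used. The 2 Igf2 windows that hold TAAT are shown because Igf2 had the largest difference of the system, and the first Igfbp2 window because Igfbp2 had the largest difference in the other direction. Capitals mark TAAT and GGGCGG on either strand. The windows are chr7:142666817-142667066 (minus strand), chr7:142661272-142661521 (minus strand) and chr1:72824230-72824479 (plus strand).
Igf2 start 1: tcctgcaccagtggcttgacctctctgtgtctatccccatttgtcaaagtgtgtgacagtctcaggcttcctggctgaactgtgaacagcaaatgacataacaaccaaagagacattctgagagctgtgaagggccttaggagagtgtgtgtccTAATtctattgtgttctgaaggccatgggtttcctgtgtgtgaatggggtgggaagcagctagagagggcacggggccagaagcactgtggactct
Igf2 start 2: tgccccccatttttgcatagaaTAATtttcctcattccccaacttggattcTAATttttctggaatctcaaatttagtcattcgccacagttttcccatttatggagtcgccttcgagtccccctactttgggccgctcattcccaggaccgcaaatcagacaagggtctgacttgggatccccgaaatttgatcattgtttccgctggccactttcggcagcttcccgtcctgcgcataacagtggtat
Igfbp2 start 1: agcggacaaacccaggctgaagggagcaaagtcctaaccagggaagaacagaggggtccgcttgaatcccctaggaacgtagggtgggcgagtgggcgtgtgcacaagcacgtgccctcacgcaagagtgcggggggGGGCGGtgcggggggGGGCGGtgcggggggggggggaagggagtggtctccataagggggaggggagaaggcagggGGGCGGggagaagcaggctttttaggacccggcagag

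HoxA5 tumours had much less Igf2 than mCherry tumours, and it was the member of the system whose difference passed the test over all genes. Igfbp2, Igfbp3 and Igfbp5 were higher and Igfbp6 lower in HoxA5 tumours at an unadjusted p under 0.05 without passing it. Igf1, Igf1r, Igf2r, Igfbp4 and Igfbp7 differed by less. Levels are normalized log2 intensities of each gene's brightest probe, on which 1 unit is a 2-fold change, and are not compared between genes. Genes count as called where limma's p, adjusted over all genes by Benjamini-Hochberg, was under 0.05. Of the 10 members 1 was lower and 0 were higher, against 4.64% and 1.21% of all genes tested (5.85% in either direction). At an unadjusted p under 0.05 in limma 5 of the 10 differed, against 24.6% of all genes. The groups did not overlap for 4 members (Igf2, Igf2r, Igfbp2 and Igfbp6), against 35.5% of all genes. The median difference, HoxA5 minus mCherry, was 0.45 over the members and 0.072 over all genes, and the median absolute difference was 0.78 and 0.42. The members were chosen with earlier results of these data known, so these comparisons with all genes are descriptions and not tests.

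**Figure D1:**
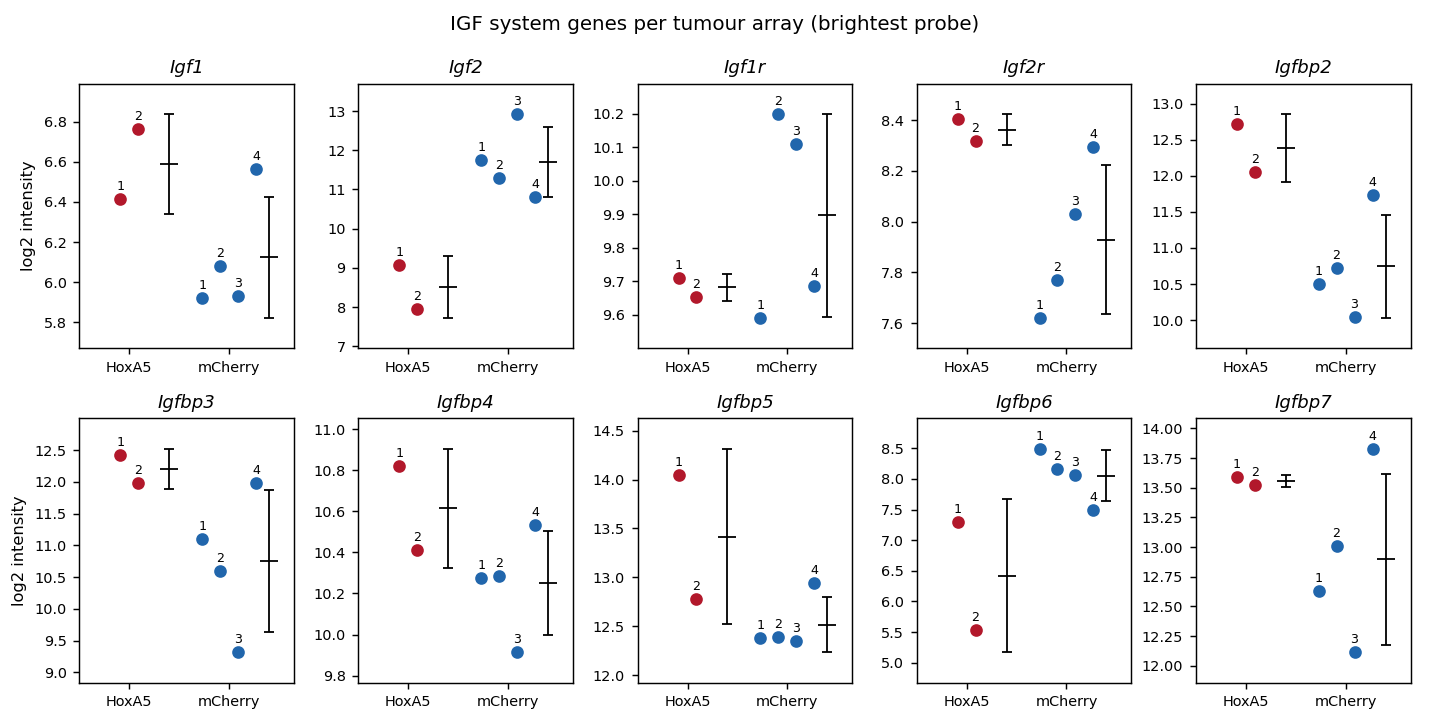
Normalized log2 intensity (vertical axis, a separate scale for each gene) of the 10 IGF system genes on each array, numbered by tumour, with HoxA5 tumours in red and mCherry tumours in blue; black bars are means ± SD (n = 2 and n = 4). The 2 HoxA5 points of Igf2, at 9.07 and 7.96, sit below all 4 mCherry points, the lowest of which is 10.81.

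The arrays were alike in depth of detection, with 20097 and 20970 probes above background on the HoxA5 arrays and 19950 to 21904 on the mCherry arrays. The array's Hoxa5 probe was above background on 0 of 6 arrays. No source used here says whether it sees the delivered gene, and the labels stay unchecked by it. Of 12 neuron genes on the array 10 could be tested, and 9 of these were above background on all 6 arrays. So were 6 of the 7 oligodendrocyte progenitor and glioma genes tested. The mean of 10 neuron genes was 9.37 and 8.35 on HoxA5 1 and 2, against 11.54, 11.75, 12.08 and 10.57 on mCherry 1 to 4, and 8 of the 10 fell. The mean of 7 oligodendrocyte progenitor and glioma genes was 10.53 and 10.87 on the HoxA5 arrays, against 9.84, 10.29, 8.89 and 10.55 on the mCherry arrays, with none called in limma and 1 at an unadjusted p under 0.05. These are bulk tumour pieces, in which fewer cells of a type and less RNA per cell cannot be told apart. The mCherry 4 array was the nearest of the mCherry arrays to the HoxA5 mean for 53.1% of all genes, and for all 10 members.

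Of the ligands, Igf2 was at 9.07 and 7.96 on HoxA5 1 and 2, against 11.76, 11.30, 12.92 and 10.81 on mCherry 1 to 4. Every HoxA5 value lay below every mCherry value, with mCherry 3 the highest and HoxA5 2 the lowest of the 6. Before normalization the same probe read 715.3 and 418.6 on the HoxA5 arrays, against 3694, 2762, 6596 and 1671 on the mCherry arrays. HoxA5 tumours averaged 8.52 ± 0.784 (SD, n = 2), against 11.70 ± 0.901 (SD, n = 4) for mCherry. Igf2 fell by 3.18 on the log2 scale, a 9.07-fold lower level (SE 0.534, 95% confidence interval of the difference -4.38 to -1.98, limma adjusted p = 0.0125). It ranked 166 of 12242 genes by p. Igf2 has 1 probe on the array, so no second probe checks it, and the call was lost without HoxA5 2 (limma adjusted p = 0.172), where 0.0166% of all genes were called, and without mCherry 1 (0.0503), where 1.42% were.

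Igf1, the ligand that growth hormone induces in the liver and that brain cells make locally, was dim in all tumours. Its brighter probe read 6.41 and 6.77 on the HoxA5 arrays, against 5.92, 6.08, 5.93 and 6.56 on the mCherry arrays. The groups overlapped, since mCherry 4 lay between the 2 HoxA5 values. The difference was 0.46 (SE 0.338, 95% confidence interval -0.29 to 1.22, limma adjusted p = 0.426). The second Igf1 probe gave 0.39.

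Neither receptor passed. Igf1r, the signalling receptor, was at 9.71 and 9.65 on the HoxA5 arrays, inside the mCherry values of 9.59, 10.20, 10.11 and 9.69, and differed by -0.21 (SE 0.274, 95% confidence interval -0.83 to 0.40, limma adjusted p = 0.664). Its 2 dimmer detected probes gave 0.41 and 0.36, so the probes of Igf1r disagree in direction, and the mean of its probes gave 0.19. A further Igf1r probe was detected on 0 arrays. Igf2r, the receptor that clears IGF2, was at 8.41 and 8.32 on the HoxA5 arrays, against 7.62, 7.77, 8.03 and 8.29 on the mCherry arrays. The groups did not overlap, but mCherry 4 lay just under HoxA5 2. The difference was 0.43 (SE 0.327, 95% confidence interval -0.30 to 1.17, limma adjusted p = 0.443), and 0.50 by its second probe.

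Igfbp2, an abundant binding protein of brain that is known from human glioblastoma as a marker of high grade, had the largest difference among the binding proteins. Its brighter probe read 12.72 and 12.05 on the HoxA5 arrays, against 10.50, 10.72, 10.05 and 11.73 on the mCherry arrays. Both HoxA5 values lay above all mCherry values, of which mCherry 4 came closest. HoxA5 tumours averaged 12.38 ± 0.468 (SD, n = 2), against 10.75 ± 0.711 (SD, n = 4) for mCherry, and differed by 1.64 or 3.11-fold (SE 0.420, 95% confidence interval 0.70 to 2.58). It missed the threshold (limma adjusted p = 0.0529) and passed it with median scaling (1.82, 0.0324), where 5.73% of all genes were called and Igfbp2 was the 1 member called higher. The second Igfbp2 probe read 10.97 and 11.63 on the HoxA5 arrays, against 10.63, 9.70, 9.22 and 10.96 on the mCherry arrays. It placed HoxA5 1 barely above mCherry 4 and differed by 1.17 (adjusted p = 0.168 over all probes).

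Igfbp3, the main IGF carrier of serum, was at 12.43 and 11.98 on the HoxA5 arrays, against 11.10, 10.59, 9.32 and 11.99 on the mCherry arrays. The groups overlapped, since mCherry 4 was above HoxA5 2, and the spread among mCherry tumours was wide (10.75 ± 1.12, SD, n = 4). The difference was 1.45 or 2.73-fold (SE 0.585, 95% confidence interval 0.14 to 2.76, limma adjusted p = 0.167). The second Igfbp3 probe differed by 0.68, and there mCherry 1, at 10.54, exceeded both HoxA5 arrays, at 9.52 and 10.08.

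Igfbp5, a binding protein that adheres to the extracellular matrix, was high on 1 HoxA5 array. It read 14.05 and 12.78 on HoxA5 1 and 2, against 12.38, 12.39, 12.35 and 12.94 on the mCherry arrays. HoxA5 2 lay below mCherry 4, and the gap of 1.27 between the HoxA5 arrays was larger than the whole mCherry range. The difference was 0.90 (SE 0.339, limma adjusted p = 0.143), and it was 0.26 without HoxA5 1, where 0.986% of all genes were called, and 1.52 without HoxA5 2. Its other probes gave 0.97 and 0.91. The mean of 13 meningeal and perivascular fibroblast genes was 7.57 and 6.76 on the HoxA5 arrays, against 6.43, 6.25, 7.06 and 6.74 on the mCherry arrays, and its part in the Igfbp5 value was not tested.

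Igfbp6, a binding protein that prefers IGF2 over IGF1, was the binding protein that went the same way as Igf2. It read 7.30 and 5.54 on HoxA5 1 and 2, against 8.49, 8.16, 8.07 and 7.50 on the mCherry arrays. Before normalization the probe read 184.8 on HoxA5 2, where the median of all probes was 166.8, so that value was near background. The groups did not overlap, yet HoxA5 1 was closer to mCherry 4 than to HoxA5 2. HoxA5 tumours averaged 6.42 ± 1.25 (SD, n = 2), against 8.05 ± 0.411 (SD, n = 4) for mCherry, and differed by -1.63 (SE 0.508, 95% confidence interval -2.77 to -0.50, limma adjusted p = 0.0876). The difference was -2.51 without HoxA5 1, -0.74 without HoxA5 2, and -0.87 in the authors' values. It has 1 probe.

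Igfbp4, a binding protein that the protease PAPP-A cleaves, was at 10.82 and 10.41 on the HoxA5 arrays, against 10.27, 10.29, 9.91 and 10.53 on the mCherry arrays, and differed by 0.36 (limma adjusted p = 0.423). The groups overlapped, with HoxA5 2 below mCherry 4. Igfbp7, a low-affinity IGF binder of tumour vessels, was at 13.59 and 13.52 on the HoxA5 arrays, against 12.63, 13.01, 12.11 and 13.83 on the mCherry arrays. Its highest value was in mCherry 4, and the difference of 0.66 did not pass (limma adjusted p = 0.327). The other 4 probes of Igfbp7 were detected on 0 arrays.

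**Figure D2:**
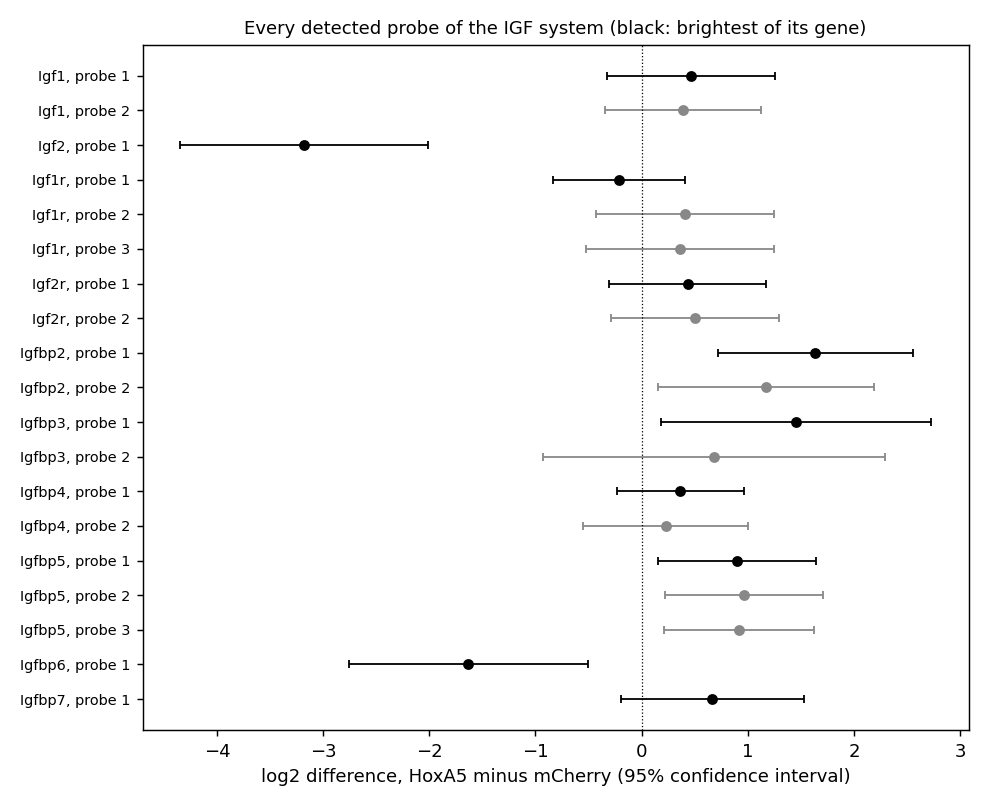
Log2 difference, HoxA5 minus mCherry (horizontal axis), with its 95% confidence interval from limma over all 19479 detected probes, for the 19 detected probes of the IGF system; black points are the brightest probe of each gene. The Igf2 and Igfbp6 intervals lie below 0, while those of Igfbp2 and Igfbp5 lie above 0 on every probe.

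In all, 19 of the 24 probes were detected on all 6 arrays and 5 on 0 arrays. Of the 7 members with more than 1 detected probe, 6 had all probes in the same direction, the exception being Igf1r. With every detected probe tested on its own, Igf2 was the member that passed (adjusted p = 0.0125, against 4.73% of all probes called).

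On their brightest probes, the 5 binding proteins Igfbp2, Igfbp3, Igfbp4, Igfbp5 and Igfbp7 were each lowest in mCherry 3 and highest in mCherry 4 among the control tumours. The second Igfbp2 probe had that order too, but second probes of Igfbp3 and Igfbp4 were highest in mCherry 1 and mCherry 2, and both other Igfbp5 probes were lowest in mCherry 1. Igf2 went the other way, highest in mCherry 3 and lowest in mCherry 4. Over all genes, mCherry 3 was the lowest mCherry array for 24.9% and mCherry 4 the highest for 32.2%. Without mCherry 4, Igfbp2 (difference 1.98, limma adjusted p = 0.00213), Igfbp3 (1.88, 0.0190) and Igfbp7 (0.98, 0.0297) were called higher. Igf2 (-3.50, 0.00149) and Igfbp6 (-1.83, 0.0326) were called lower in that fit. The share of all genes called then was 19.9%, and the array was left out as 1 of 6 such fits.

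By the root-mean-square difference of centred log2 values over the 6 arrays, the genes most like Igf2 were Jakmip1 (0.211), Rasd2 (0.213) and Gsg1l (0.218). Those most like Igfbp2 were Sox12 (0.0447), Emp3 (0.0593) and Cdk5rap2 (0.130). Those most like Igfbp3 were Ppp1r14b (0.160), Clic1 (0.175) and Tagln2 (0.175), and those most like Igfbp6 were Gpd1 (0.250), Uba6 (0.255) and Ankrd35 (0.265). The 4 members' own SDs over the arrays were 1.82, 1.03, 1.15 and 1.06, and likeness was computed for these members because their SD was at least 1.

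Most choroid plexus markers were low on the HoxA5 arrays, as Igf2 was. The mean of 9 choroid plexus genes was 5.66 on both HoxA5 arrays, against 8.20, 7.79, 9.54 and 7.22 on mCherry 1 to 4. Igf2 had the same order among the mCherry arrays. The mean of 7 myelin genes had that order too, at 11.44, 11.19, 11.48 and 10.44, against 9.14 and 8.29 on the HoxA5 arrays. Neuron and astrocyte means were likewise highest in mCherry 3 and lowest in mCherry 4. The choroid plexus mean did not differ between the HoxA5 arrays, but genes within it differed in opposite directions, with Aqp1 higher on HoxA5 1 and Ttr on HoxA5 2. Otx2, Kl and Folr1 were above background on neither HoxA5 array, and Ttr and Kcne2 each on 1 of them. Only 2 of the 9 genes were above background on all 6 arrays, so the equal means do not show equal levels of these genes. Of the 9, 8 were lower by difference, 4 fell and 0 rose, with a median difference of -2.17. In the authors' values the median was -0.88, and -0.85 when no background was corrected, with 2 called in each. Of the 4 called, 2 (Otx2 and Kl) were above background only in mCherry tumours and so passed the filter through that group, and with detection on all 6 arrays required, 1 of 2 genes was called. Aqp1, a water channel of choroid plexus that other cells also express, differed by 1.08 without passing (limma adjusted p = 0.529), at 10.02 and 7.46 on the HoxA5 arrays, against 6.84, 7.02, 10.10 and 6.67 on the mCherry arrays. Kcne2, a potassium channel subunit, did not pass (difference -1.06, limma adjusted p = 0.357). Ttr, the thyroxine carrier of the choroid plexus, was at 5.17 and 7.03 on the HoxA5 arrays, against 14.45, 14.47, 14.86 and 14.11 on the mCherry arrays. Clic6 fell by 3.65 (adjusted p = 0.0114). Otx2, a homeobox gene of choroid plexus, was not above background on either HoxA5 array and at least 4.19-fold lower (limma adjusted p = 0.0206), with a like bound of at least 4.95-fold for Kl (adjusted p = 0.0402). Each bound sets the mCherry mean against the dimmest detected signal of each HoxA5 array. Folr1 was also not above background on either HoxA5 array. On mCherry 3, relative to the mCherry mean, Igf2 was 1.22 higher and the choroid plexus mean 1.36 higher.

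Meningeal and perivascular fibroblast genes split. Of 13 tested, 4 rose and 1 fell, with a median difference of 0.41. Without background correction the median was 0.15, with 3 called, and over the genes detected on all 6 arrays it was 1.57. Lum (3.16) and Dcn (1.91), proteoglycans that bind collagen, rose with the collagen genes Col1a1 (2.79) and Col1a2 (2.53), with limma adjusted p-values from 0.00921 to 0.0454. Slc13a4, a sulfate transporter of the meninges and choroid plexus, fell by 3.23 (limma adjusted p = 0.0198). It read 6.43 and 5.46 on the HoxA5 arrays, against 8.79, 8.40, 10.70 and 8.81 on the mCherry arrays. The neuron genes moved with Igf2 as well, with a mean of -2.12 and -3.14 relative to the mCherry mean on HoxA5 1 and 2, where Igf2 was at -2.63 and -3.73. Of 7 myelin genes 6 fell and of 9 astrocyte genes 2 fell, with 0 higher in either list. The part of any of these cell types in the Igf2 value was not tested. With 1 array left out in turn, 1 to 7 choroid plexus, 0 to 6 fibroblast, 0 to 9 neuron and 0 to 11 mitosis genes were called, the most without mCherry 4. The fewest choroid plexus, fibroblast and mitosis calls came without either HoxA5 array, and the fewest neuron calls without HoxA5 2.

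**Figure D3:**
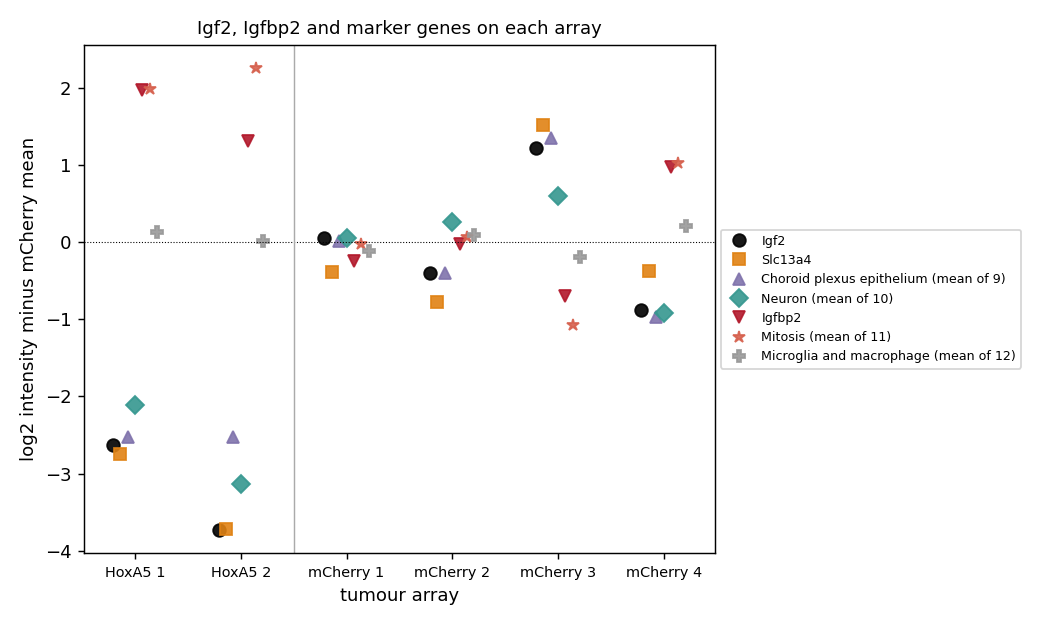
Log2 intensity minus the mCherry mean (vertical axis) on each array (horizontal axis, points spread sideways so that they can be told apart) for Igf2, Igfbp2, Slc13a4 and the means of 4 marker lists (choroid plexus, neuron, mitosis, and microglia and macrophage). Igf2, Slc13a4 and the choroid plexus and neuron means are low on both HoxA5 arrays, and Igfbp2 and the mitosis mean are high there and on mCherry 4. Slc13a4 is the 1 called gene of the meningeal and perivascular fibroblast list that fell, while 4 rose. That list's mean, not plotted, was 0.95 and 0.14 on the HoxA5 arrays, against -0.19, -0.37, 0.44 and 0.12 on the mCherry arrays.

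Mitosis genes, like Igfbp2, were high on the HoxA5 arrays and on mCherry 4. Their mean over 11 genes was 8.65 and 8.92 on the HoxA5 arrays, against 6.63, 6.73, 5.59 and 7.69 on the mCherry arrays, with 7 of 11 called higher. Of these 7, 3 (Ttk, Ube2c and Ccna2) were above background only in HoxA5 tumours and so passed the filter through that group, and with detection on all 6 arrays required, 3 of 7 were called. The kinetochore gene Cenpf (1.75) rose in HoxA5 tumours, and the part of mitosis genes in the Igfbp2 value was not tested. Ttk rose at least 1.92-fold, and Ube2c and Ccna2 each rose at least 1.76-fold. Endothelial markers, set beside Igfbp7, had a mean of 8.96 and 8.50 on the HoxA5 arrays, against 7.91, 8.74, 8.28 and 8.81 on the mCherry arrays. Of 11 tested, 8 were higher and 3 lower by difference, with a median of 0.49. Among them 1 was called lower (Ly6c1, by 1.49, limma adjusted p = 0.0483) and 0 higher. With no background correction, with median scaling or in the authors' values limma called 0 of the 11. Emcn, a sialomucin of vessels, differed by 1.07 without passing. Mural markers had 2 of 9 higher (Acta2 and Tagln) and 1 lower (Vtn), with a mean of 7.99 and 7.43 on the HoxA5 arrays, against 7.02, 7.57, 7.15 and 7.92 on the mCherry arrays. Microglia and macrophage markers, set beside Igf1, had a mean of 9.14 and 9.02 on the HoxA5 arrays, against 8.89, 9.10, 8.81 and 9.21 on the mCherry arrays, with 0 of 12 called in limma and 0 at an unadjusted p under 0.05.

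Downstream of the receptors, 0 of 26 tested signalling genes passed in limma, with 3 at an unadjusted p under 0.05 and a median difference of 0.12. Pik3r1, a regulatory subunit of PI3K, differed by 0.88 (adjusted p = 0.142), the lipid phosphatase gene Inppl1 by 0.96, the adaptor Shc1 by 0.78 and the kinase Gsk3b by -0.55. Insr, the insulin receptor, differed by 0.50 and Irs2, which docks to both receptors, by -0.56. Akt1 and Akt2 had no probe above background on 2 or more arrays and were not tested. Without mCherry 4, 2 of the 26 signalling genes passed, where 19.9% of all genes were called.

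Among the proteases that cut binding proteins, and their regulators, 0 of 8 passed in limma and 3 had an unadjusted p under 0.05, with a median of 0.93. Plau, the urokinase gene, differed by 1.52 (adjusted p = 0.102), Stc2, an inhibitor of PAPP-A, by 1.11, the related Stc1 by 1.15, the serine protease gene Htra1 by -0.58 and Plat, the tissue plasminogen activator, by 0.72. Pappa itself differed by -0.07 and was detected on 1 HoxA5 array and 2 mCherry arrays. Without mCherry 4, 4 of these genes passed, where 19.9% of all genes were called. Igfals, the acid-labile subunit of the serum complex, was not above background on enough arrays to be tested.

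Of 6 genes related to the binding proteins, 1 passed, with a median of 1.10. Igfbpl1, an IGFBP-like gene of the developing brain, was at 7.41 and 7.94 on the HoxA5 arrays, against 5.96, 4.96, 6.24 and 6.11 on the mCherry arrays. The groups did not overlap, and Igfbpl1 rose 3.63-fold (SE 0.427, limma adjusted p = 0.0381). Of the 4 mCherry arrays, 3 had it above background, so it was not tested where detection on all 6 arrays was required. Igfbpl1 lost its call with the mean of its probes (difference 1.46, limma adjusted p = 0.0713) and without a detection filter (0.0714). It was called in 8 of 14 other fits, its difference was 0.86 without background correction, and the call was lost without HoxA5 1, HoxA5 2, mCherry 1 or mCherry 2. Ccn2 differed by 0.87, Esm1, a proteoglycan of sprouting endothelium, by 1.95 and Ccn4 by 1.29, all without passing.

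Igf2 is imprinted, and 10 other imprinted growth genes were tested, of which 1 passed, with a median of -0.54. Meg3, a long non-coding RNA, was at 5.84 and 5.86 on the HoxA5 arrays, against 8.21, 9.06, 8.95 and 6.91 on the mCherry arrays. Every HoxA5 value was below every mCherry value, and Meg3 fell by 2.43 (limma adjusted p = 0.0405). It was called in 6 of 15 other fits, its difference was -1.33 without background correction, and leaving out any array but mCherry 4 lost the call. Ndn differed by -1.06, Cdkn1c by -1.05 and Peg3 by -0.97. Dlk1 differed by -0.03 and Mest by 0.60. H19, transcribed beside Igf2, had no probe listed under its symbol alone and could not be tested. Of the list of Igf2 mRNA binding and Igf2 locus genes 0 of 3 passed in limma, with 0 at an unadjusted p under 0.05. Ctcf, which insulates the Igf2 locus, differed by 0.48 and Igf2bp3 by 0.16. Lin28b was not above background on either HoxA5 array and was detected on 2 mCherry arrays, and it did not pass.

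In the growth hormone axis 1 of 7 genes passed, with a median of -0.03. Sst, the precursor of somatostatin, which inhibits growth hormone release and in cortex marks interneurons, was at 8.76 and 7.79 on the HoxA5 arrays, against 12.53, 12.59, 12.86 and 10.99 on the mCherry arrays, and fell by 3.97 (limma adjusted p = 0.00621). Without HoxA5 2 the Sst difference was -3.47 and its call was lost (limma adjusted p = 0.0996). The receptor gene Ghr differed by -0.63 and Stat5a by 0.71. Ghsr was not above background on either HoxA5 array and was detected on 2 mCherry arrays.

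**Figure D4:**
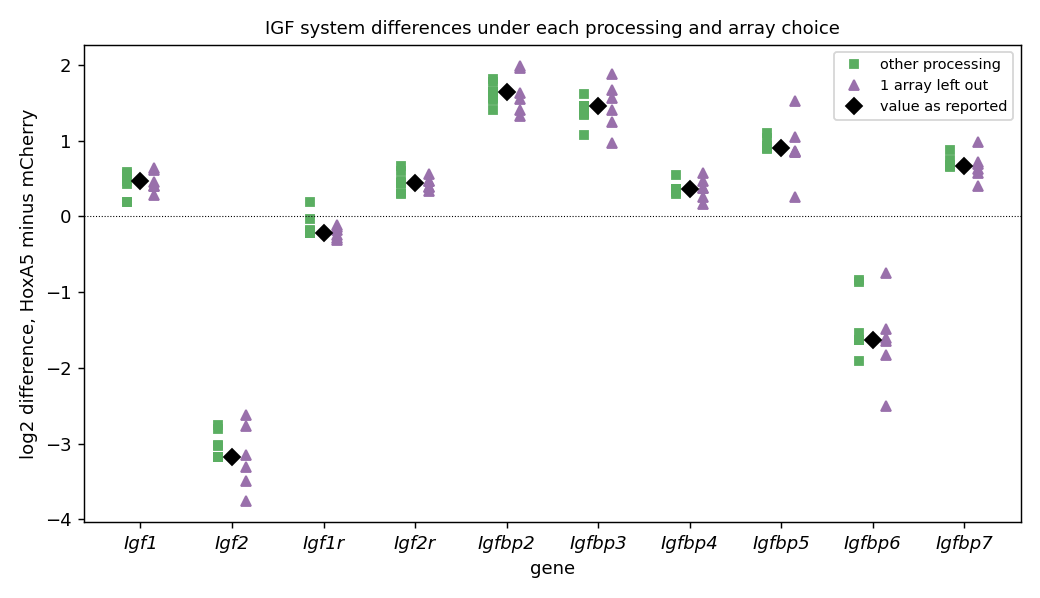
Log2 difference, HoxA5 minus mCherry (vertical axis), of each IGF system gene as reported (black), under other processing (green) and with 1 array left out (purple). Igf2 stays between -3.75 and -2.62 throughout, and Igfbp5 runs from 0.26 to 1.52 depending on which HoxA5 array is left out.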

How the data were processed

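The authors deposited linear intensities (lowest 102.5), named as non-normalized, with a detection p-value beside each, per the file headers. A second table holds the authors' processed values, taken as log2 from their range, with unknown background step and offset; limma is named for it, per the submitters' processing notes. Intensities were normalized with neqc (offset 16) in limma 3.58.1 under R 4.3.3. Of the probes, 34885 had 1 gene symbol, 18 several and 10378 none; 0 symbols changed through the GRCm38.p6 gene table. Probes with 1 symbol were kept where 2 or more arrays had a detection p-value under 0.05 (19479), and each of 12242 genes was represented by its brightest probe. HoxA5 and mCherry arrays were compared with lmFit and eBayes with an intensity trend (4 residual and 5.52 prior degrees of freedom, median), adjusting over all genes. The fit was run on simulated data with independent noise drawn from its own variances, which checks the code and not the variation of whole arrays. The number of arrays limits the precision. Members and gene lists were chosen with earlier results of these data known. Named genes are all members, Hoxa5, up to 4 genes of each list by smallest p, and the 3 genes most like each member with an SD of at least 1; Insr, Irs2, Stc1, Pappa, Dlk1, Mest, Folr1, Col1a2, Aqp1 and Kcne2 were added after their values were seen. Alternatives were other background, scaling, filter, probe and variance choices, the authors' values, the replicate number as a block, and leaving out each array.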

Additional observations from a re-analysis of the deposited data

Results flagged for a closer look

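In the mCherry group, the value of mCherry 4 on the brightest Igfbp5 probe stood apart from the others: its gap to the nearest array was 0.935 of the group's whole range, above the critical value of Dixon's test for 4 samples. The 3 other mCherry arrays lay between 12.35 and 12.39, and mCherry 4 was at 12.94, above HoxA5 2 at 12.78. On the other Igfbp5 probes mCherry 4 was also the highest mCherry array, but its gap was 0.509 and 0.292 of the range, below that critical value. Of 10 members examined 1 was flagged in this way, and chance flags about 1 in 20 groups. Without mCherry 4 the Igfbp5 difference was 1.05 (limma adjusted p = 0.0504).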

How the results depend on the processing

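Over 15 alternatives, 149 of 150 member differences kept their direction and 140 also their side of the threshold. The exception in direction was Igf1r, at 0.19 with the mean of its probes. Igf2 passed in 13 of 15. Igfbp2 passed with median scaling (limma adjusted p = 0.0324), with the replicate block (0.0121) and without mCherry 4. In the block fit the difference rests on arrays 1 and 2 of each group, paired by number. No HoxA5 array shares a number with mCherry 3 or mCherry 4, so the block fit leaves mCherry 4 out of the difference too. Members called higher numbered 1 with median scaling, 2 with the replicate block and 0 to 3 with 1 array left out, and members called lower 0 to 2 with 1 array left out. Of all genes, 148 were called higher and 568 lower. The higher count was 265 with median scaling, 95 without a detection filter and 236 with the replicate block. The lower count was 362 in the authors' values and 372 when no background was corrected. With 1 array left out the counts were 0 to 1038 higher and 2 to 1370 lower, the fewest without HoxA5 2 and the most without mCherry 4. The share of calls that were higher was 20.7%, and 37.7% with median scaling, under which all genes had a median difference of 0.20 in place of 0.072. The titles give both groups numbers 1 and 2, and the numbers are not taken as pairs. Deviations of same-numbered arrays from their group means correlated at -0.36 and -0.24 across genes. With 2 HoxA5 arrays the deviation of HoxA5 2 is minus that of HoxA5 1, so these values cannot tell whether the numbers are pairs. A fit without 1 HoxA5 array assumes that the other varies like the mCherry arrays. Dim probes, such as those of Igf1, limit what the array can show, since their differences are pulled towards 0.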
